A study of Mus musculus with 6 samples.

Results

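The wild type arm of a mouse kidney series was described on its own, without the knockout contrast: 3 of the 6 arrays of the series, taken by their titles. Each array carried RNA from renal proximal tubules that had been dissected by hand in cold salt solution from the perfused left kidney of anesthetized wild type mice. No allele, treatment, strain, sex or age is given for these mice in the sources used here. The other 3 arrays of the series carried Clcn5 knockout tubules and were not used. Some 80 to 100 tubule pieces of 2 mm were taken per kidney, and RNA of several mice was combined for each array. The labels give 3 to 4 mice per pool and the records stored with the arrays give 7, a difference that could not be settled. The records call the 3 arrays biological replicates, and they are called pools 1, 2 and 3 here.

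The proximal tubule is the first part of the nephron after the glomerulus and reclaims most of the filtered glucose, amino acids, phosphate, bicarbonate and protein. Its apical membrane forms a brush border with sodium-coupled transporters and peptidases, and the receptors megalin and cubilin feed an endocytic pathway beneath it. The cells burn fatty acids in many mitochondria and make glucose, and along the tubule the early S1 and S2 parts give way to the straight S3 part.

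Values are linear MAS5 signals of Affymetrix mouse arrays in arbitrary units, scaled so that the trimmed mean of every array was 150. Each of 18193 genes was represented by the probe set with its highest mean log2 signal, and genes were ranked by that mean. Probe sets differ in how strongly they respond, so a rank is an order of signals and not of transcript numbers. Among 3907 genes with a mean signal of 200 or more and a second probe set, the brightest probe set exceeded the second by a median of 2.34-fold. Since detection calls were not used here, genes of smell receptors, most of which are silent in kidney, served as a guide to background. The 95th percentile of 38 such genes was a signal of 74.1, called the smell receptor level below. Of all genes, 9523, or 52.3%, lay above it. None of 15 genes of eye, sperm, brain, heart and pancreas did. That list was chosen with earlier results of these data known, so it is no test of the level. Across all genes Pearson's r of log2 signals between pools was 0.962 to 0.966, which describes arrays that share probes.

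The label of the samples was checked first against 6 genes. Kap, the kidney androgen-regulated protein of the proximal tubule, gave signals of 8370.3, 8008 and 8745 in pools 1, 2 and 3 (mean 8374 ± 368, SD, n = 3) and ranked 2nd of all genes. Slc34a1, the sodium-phosphate cotransporter NaPi-IIa of the brush border, gave 6644, 6154 and 7859 and ranked 17th. Lrp2, which encodes megalin, gave 4296, 3865 and 4367 and ranked 144th. Slc5a2, the glucose cotransporter SGLT2 of the early proximal tubule, gave 3688, 3452 and 3629.6 and ranked 206th. All 4 proximal genes were bright in every pool. The 2 genes of later segments were bright as well. Umod, which encodes uromodulin of the thick ascending limb, gave 3899.9, 3647 and 4079 and ranked 171st. Klk1, tissue kallikrein of the connecting tubule, gave 7328, 6649 and 7928 and ranked 7th on a probe set that may also bind related kallikreins, and 6610.3, 6421 and 7429.7 on another. The samples thus held strong signals of proximal genes together with signals of distal genes, and no share of cells can be read from them: in such bulk samples fewer cells of a type and less RNA per cell cannot be told apart.

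Promoter sequences are shown for Kap, Miox and Slc34a1, proximal genes among the 17 brightest, because each holds the letters TATAAA, which form a TATA box where they lie a short way upstream of a start. They are RefSeq windows of build GRCm38.p6 from 250 bases before to 50 bases after the start, 5′ to 3′ on the gene's strand, with TATAAA in capitals. The Kap window is chr6:133853618-133853917 on the minus strand and its TATAAA begins 31 bases before the start. The Miox window is chr15:89334223-89334522 on the plus strand, with TATAAA 40 bases before the start. The Slc34a1 window is chr13:55399398-55399697 on the plus strand, with TATAAA 16 bases after the start, which is not the place of a TATA box.
Kap: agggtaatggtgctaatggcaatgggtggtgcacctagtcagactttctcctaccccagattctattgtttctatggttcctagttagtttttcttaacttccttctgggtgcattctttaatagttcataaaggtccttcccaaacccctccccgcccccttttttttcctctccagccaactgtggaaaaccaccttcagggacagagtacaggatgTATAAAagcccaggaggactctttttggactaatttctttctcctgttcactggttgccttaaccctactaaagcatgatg
Miox: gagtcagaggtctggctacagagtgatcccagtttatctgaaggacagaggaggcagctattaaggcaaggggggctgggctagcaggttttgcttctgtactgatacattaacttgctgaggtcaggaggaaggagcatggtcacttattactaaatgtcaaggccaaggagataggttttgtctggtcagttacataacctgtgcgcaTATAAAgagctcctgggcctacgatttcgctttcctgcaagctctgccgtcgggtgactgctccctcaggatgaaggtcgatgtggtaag
Slc34a1: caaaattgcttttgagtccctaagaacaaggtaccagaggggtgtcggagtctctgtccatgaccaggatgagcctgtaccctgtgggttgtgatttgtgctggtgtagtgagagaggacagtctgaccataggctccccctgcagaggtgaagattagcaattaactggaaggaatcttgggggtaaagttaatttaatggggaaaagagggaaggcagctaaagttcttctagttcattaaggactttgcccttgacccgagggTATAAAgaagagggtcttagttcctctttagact
Of the 100 brightest genes, 76 had a RefSeq promoter, and TATAAA stood on either strand in 17 of them, 22.4%. It stood in 1662 of 14452 promoters of all genes, 11.5%. Besides these 3 genes the 17 included Fth1, of the ferritin heavy chain, Cyp2e1, Dnase1 and S100g, of the calcium-binding protein calbindin-D9k. A motif of the type bound by HNF1, searched on both strands, stood in 1 of the 76 promoters, that of Cltrn, and in 58 of 14452. The letters CAAAGTCCA, of the type bound by HNF4, stood in 1 of the 76, that of Pdzk1, and in 85 of 14452. Genes had 1.16 windows on average among the 76 and 1.25 among all. A match is a description of letters and not a binding site.

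The 30 brightest genes held proximal enzymes and transporters, genes that every cell uses and, at rank 7, the connecting tubule gene Klk1. Akr1a1, an aldo-keto reductase that makes glucuronate into gulonate, was 1st with signals of 9236, 8189 and 10396. Miox, the kidney-specific myo-inositol oxygenase that feeds the same glucuronate pathway, was 3rd with 8079.9, 7358 and 9229. The translation factor Eef1a1 (mean 7874), the growth-related protein gene Tpt1 (7516) and Fth1 (7311) followed. Fbp1, the fructose bisphosphatase of glucose synthesis, was 8th with 7108, 6650.2 and 7956. Tcn2, the carrier of vitamin B12 that megalin takes up, was 10th (7193 ± 764, SD, n = 3). Others of proximal character were Cyp4b1 (7156), the fatty acid transporter and acyl-CoA synthetase Slc27a2 (7053), Keg1 (6811), Cyp2e1 (6761) and Acsm2 (6323). Dnase1, a secreted nuclease, gave 6631 and Igfbp7, a secreted binding protein, 6838. Genes of mitochondria among the 30 were Uqcrb, Hadh, Cox7a2, Atp5g3, Slc25a3, Cox6b1, Cycs and the mitochondrially encoded ND5, with means of 6289 to 7231. Without probe sets that may bind several transcripts, 52 of the 100 brightest genes were still among the 100 brightest. The remaining genes of the 30 were Nme2, Hspa8, Rps29, Ndrg1 and Fxyd2, the gamma subunit of the sodium pump.

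**Figure D1:**
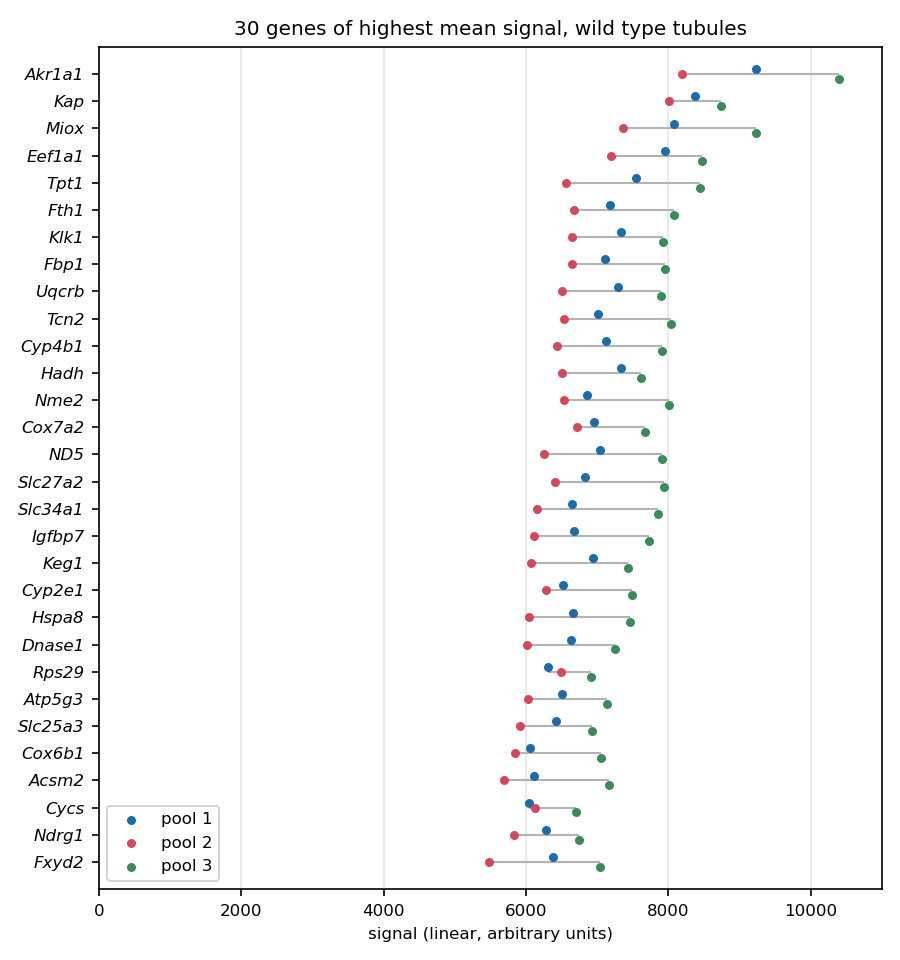
Signals (linear, arbitrary units, from 0) of the 30 genes of highest mean log2 signal in the 3 wild type pools, 1 point a pool, with a line from the lowest to the highest. Kap lies at 8008 to 8745 and Akr1a1 at 8189 to 10396, and for most genes pool 2 is on the left and pool 3 on the right.

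The pools kept 1 order at the bright end. Among the 100 brightest genes, pool 2 was lowest, pool 1 in between and pool 3 highest in 93. With quantile normalization, which gives all 3 arrays the same distribution, 12 of 100 had that order. The 99th percentile of all signals was 3293, 3110 and 3450 in pools 1, 2 and 3. The median range between pools was 1.19-fold for the 100 brightest genes. Pool 2 was also the one washed on fluidics station 2, while pools 1 and 3 were on station 1, and the station's part in this was not tested.

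Markers of all proximal segments were bright. Of 11 genes of that list on the array, 11 lay above the smell receptor level, and 10 were among the 1000 brightest genes, which are 5.5% of all. They were also common among the 300 brightest, 1.65% of all genes, which held 9 of the 11. Besides Kap, Miox, Slc27a2, Slc34a1 and Keg1 these were Pdzk1, the scaffold of brush border transporters (4713 ± 321, SD, n = 3), Lrp2, Gatm, which makes the creatine precursor, and the nuclear receptor gene Hnf4a. Gatm gave 3526, 3236 and 3563. Hnf4a gave 3368, 3027 and 3588. Cubn, of cubilin, gave 2487, 2270.4 and 2591 and ranked 429th. The gene outside the 1000 was Ass1, of arginine synthesis, at 415, 430.1 and 493 on its only probe set that names no other gene.

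Both early and late proximal segments were represented. All 10 markers of S1 and S2 were above the smell receptor level and 9 were among the 1000 brightest. The bicarbonate cotransporter gene Slc4a4 gave 4333, 4072 and 4536, and the organic anion transporter genes Slc22a8 and Slc22a6 gave means of 4249 ± 281 and 3322 ± 158 (SD, n = 3). Slc2a2, the basolateral glucose carrier GLUT2, gave 2438, 2453 and 2483, a range of 1.02-fold. Of 10 S3 markers 8 were above the level and 4 among the 1000 brightest. Slc7a13, an aspartate and glutamate carrier of S3, gave 3673, 3646 and 3757. The phospholipid flippase gene Atp11a gave 3108, 2985 and 3198, and Slc3a1, the rBAT subunit of the cystine transporter, 2715, 2625 and 2843. Slc22a19 (61.9, 64.0 and 54.5) and Cyp7b1 (55.7, 61.4 and 51.2) were the S3 markers below the level. Among members with a mean signal of 200 or more, the median range between pools was 1.10-fold for S1 and S2 and 1.08-fold for S3. It was 1.19-fold for the list of all proximal segments, whose median signal was 4705. Over all genes with a mean signal of 200 or more it was 1.11-fold. Genes with signals from 2000 to 4000 had a median range of 1.10-fold and those of 4000 or more 1.17-fold.

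**Figure D2:**
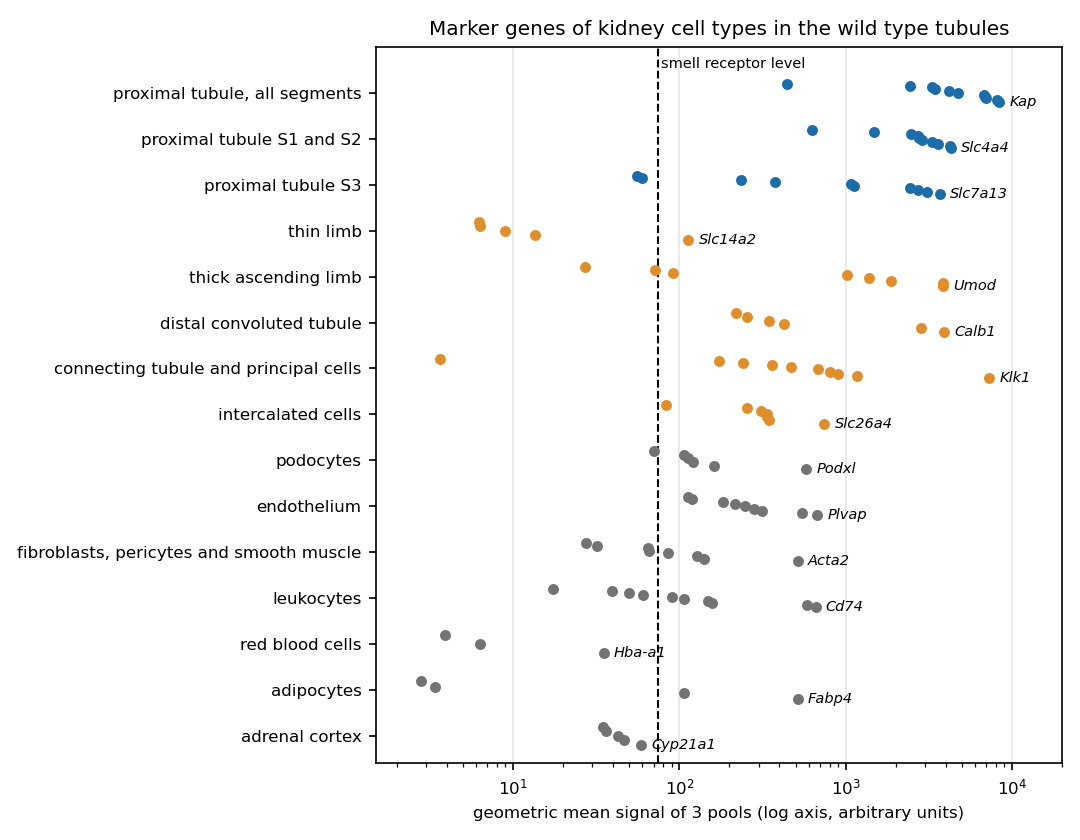
Geometric mean signal of 3 pools (log axis, arbitrary units) of marker genes of kidney cell types, 1 point a gene, with proximal lists in blue, other tubule lists in orange and other cell types in grey. The dashed line is the smell receptor level of 74.1, and the brightest gene of each list is named.

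Genes of tubule segments past the proximal tubule were detected over most of their lists, the thin limb list excepted. In all, 29 of 36 markers of other tubule segments were above the smell receptor level and 7 were among the 1000 brightest, against 29 and 23 of 31 proximal markers. The shares over all genes were 52.3% and 5.5%. The 7 include Cldn10 (1976, 1927 and 1749), on a probe set that may bind several transcripts. Which segment its signal came from was not tested. In the thick ascending limb list 6 of 8 were above the level. Egf, whose precursor protein is made there and in the distal convoluted tubule, gave 3741, 3761 and 4032. Slc12a1, the sodium-potassium-chloride cotransporter NKCC2, gave 1384, 1303 and 1433 and the potassium channel gene Kcnj1 1013, 1104 and 943. The tight junction genes Cldn16 (76.9, 50.3 and 95.01) and Cldn19 (17.5, 23.3 and 49.1) had mean log2 signals below the level. Of 6 distal convoluted tubule genes all lay above it. Slc12a3, the thiazide-sensitive cotransporter, gave 2733, 2503 and 3304, and Calb1, calbindin-D28k, 3962, 3749 and 4040.0. Pvalb and the magnesium channel gene Trpm6 gave means of 345 ± 25.6 and 255 ± 3.32 (SD, n = 3).

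Of 10 connecting tubule and principal cell genes 9 lay above the level. The water channel genes Aqp2 and Aqp3 gave 746, 724 and 959, and 841, 961 and 911. The sodium channel subunit gene Scnn1a gave 751, 634 and 665, and Hsd11b2, which protects the mineralocorticoid receptor from glucocorticoids, 1102, 1141 and 1263. Elf5 lay below the level at 4.69, 5.54 and 1.85. Intercalated cell genes were above it in 7 of 7. They included Slc26a4, of the anion exchanger pendrin (748, 717 and 768), and the transcription factor gene Foxi1 (354, 308 and 276). Of 5 thin limb genes only the urea transporter gene Slc14a2 (111, 107 and 122) was above the level, and Fst, Sptssb, Corin and Bst1 gave means of 6.78 to 15.5. The summed signal over a list ranged between pools from 11918 to 12463 for the thick ascending limb, 7549 to 8578 for the distal convoluted tubule, 11268 to 13057 for the connecting tubule and principal cells, and 2372 to 2461 for intercalated cells. For the list of all proximal segments it ranged from 51226 to 60843. Pool 2 was lowest and pool 3 highest for each of these lists, the order that most of the 100 brightest genes had as well. The part of distal tubule RNA in the other results was not tested.

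Genes of cells outside the tubule epithelium were dimmer on their own probe sets and none was among the 1000 brightest. Over 7 lists with 45 genes, podocytes included, 26 lay above the smell receptor level, beside 52.3% of all genes. Without probe sets that may bind several transcripts 17 did, and genes with no other probe set left the count. The same rule lowered proximal markers above the level from 29 to 24 and other tubule markers also from 29 to 24. With the median of all probe sets as the level, 34 of the 45 genes lay above. With all probe sets of a gene averaged, 22 lay above the smell receptor level. Endothelial genes were above it in 9 of 9, led by Plvap, of the diaphragms of fenestrated vessels (649.7, 626 and 752), and Emcn (565, 560.5 and 506). Podocyte genes were above it in 5 of 6, with Podxl, which endothelium also expresses, at 612, 564 and 567 and nephrin, Nphs1, at 93.5, 124 and 103. Wt1 lay below at 72.3, 60.5 and 79.8. Of 10 leukocyte genes 6 were above it: Cd74 (630.3, 641 and 713) and Csf1r (608, 569 and 572) of antigen presenting cells and macrophages were, while the lymphocyte genes Cd3e (20.4, 19.1 and 13.2), Cd79a and Ms4a1 were not. Of 8 genes of fibroblasts, pericytes and smooth muscle 4 were above it, with Acta2 at 531, 536 and 483 and Col1a1 at 26.0, 23.0 and 35.1. None of 3 red cell genes was, in kidneys that had been perfused, with Hba-a1 at 41.5, 22.0 and 47.0. None of 5 adrenal genes was. Of 4 adipocyte genes 2 were, Retn (107 ± 10.1, SD, n = 3) and Fabp4 (517 ± 45.7), which endothelium also expresses, while Adipoq gave 0.997, 5.92 and 6.68. The summed signals ranged between pools from 2673 to 2735 for endothelium, 1138 to 1179 for podocytes and 1901 to 1952 for leukocytes.

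Sugar carriers showed the apical and basolateral isoforms of the early tubule. Slc5a2 and Slc2a2 ranked 206th and 423rd. Slc5a1, the SGLT1 isoform known from S3 and intestine, gave 253, 224 and 227 and ranked 5213th, and its other probe set gave 119, 166 and 118. The lactate cotransporter genes Slc5a12 (1508, 1392 and 1541) and Slc5a8 (1106, 1157 and 1123) and the mannose and fructose cotransporter gene Slc5a10 (815, 905 and 944) were also present. The fructose carrier gene Slc2a5 gave 606, 504 and 579. Of 18 genes of the list 15 lay above the smell receptor level and 3 among the 1000 brightest. The shares over all genes, 52.3% and 5.5%, are the background for these counts and for those of every list below. Below the level were Slc2a9 (61.2, 60.1 and 77.9), Slc2a3, the GLUT3 of neurons (30.9, 57.7 and 46.2), and Slc16a3, the lactate exporter of glycolytic cells (35.9, 30.8 and 46.0).

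Of the phosphate carriers 5 of 5 lay above the level and 1, Slc34a1, among the 1000 brightest. Slc34a3, the other renal cotransporter NaPi-IIc, gave 839, 749.8 and 804. The housekeeping carriers Slc20a1 and Slc20a2 gave 349 ± 15.7 and 315 ± 41.9 (SD, n = 3), and Slc34a2, the lung and intestine isoform, gave 103, 103 and 84.8.

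Among the amino acid carriers, both partners of 3 known pairs were among the 1000 brightest genes. Slc7a9, the light chain of the cystine transporter, gave 3588, 3613 and 3882 beside its partner Slc3a1. Slc7a7, the basolateral light chain for cationic amino acids, gave 2821, 2574 and 2803 beside its heavy chain Slc3a2 at 2451, 2252 and 2644. Slc6a19, the apical carrier of neutral amino acids, gave 2673, 2859 and 2754, and Cltrn, collectrin, which brings it to the membrane, 4722, 4859.7 and 4847. Of 21 genes 18 lay above the smell receptor level and 9 among the 1000 brightest. Slc15a2, the renal peptide carrier PEPT2, gave 663, 677 and 609.9, and Slc15a1, the intestinal PEPT1, 23.3, 20.3 and 19.1. Slc7a12 (43.7, 66.1 and 71.2) and the proline and glycine carrier gene Slc36a2 (25.9, 48.6 and 27.1) were below the level. Slc6a13, a carrier of taurine and GABA, was the member whose range reached 1.54-fold (353, 229.9 and 269).

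**Figure D3:**
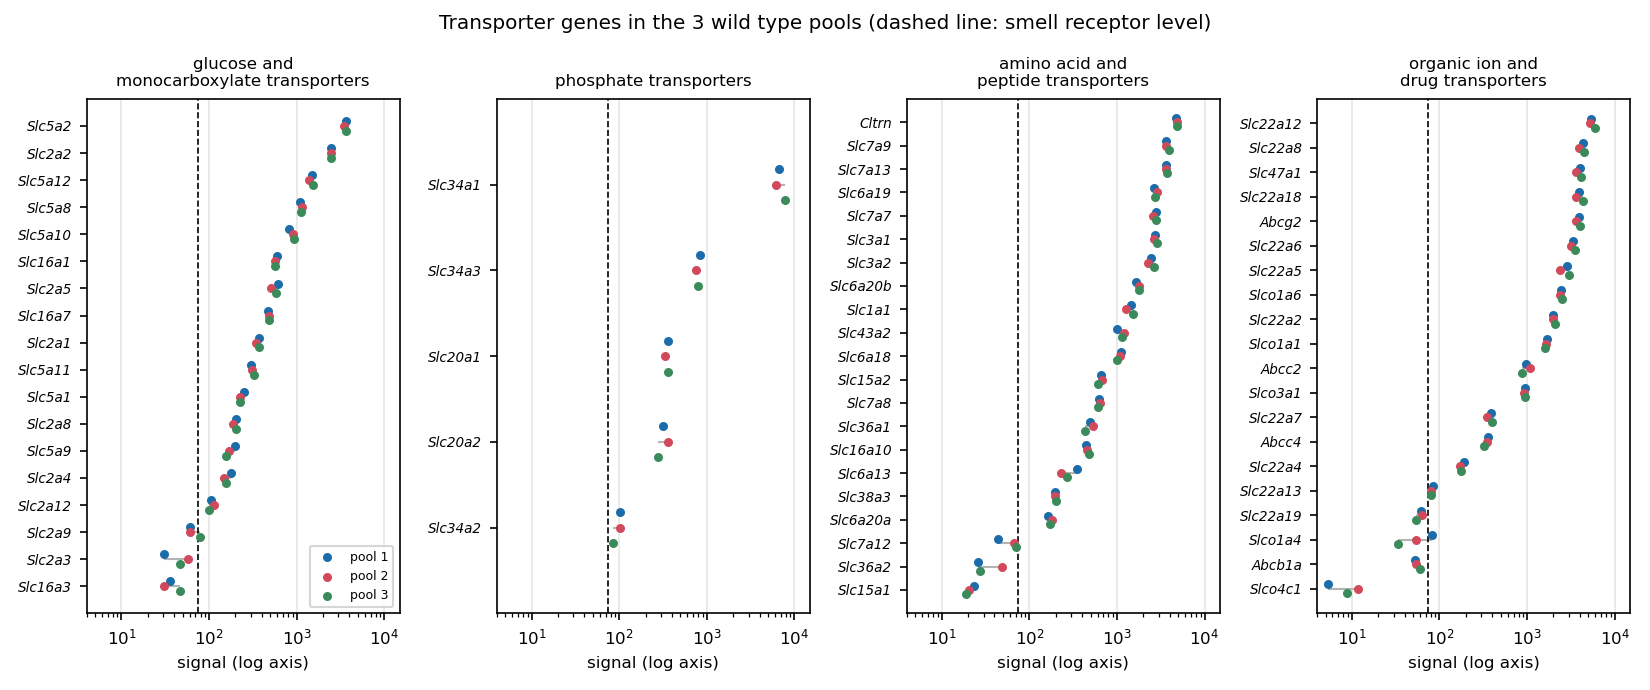
Signals (log axis, arbitrary units) of transporter genes of 4 lists in the 3 wild type pools, 1 point a pool, with lines from the lowest to the highest and the smell receptor level of 74.1 as a dashed line. Points of a bright gene nearly coincide, while those of dim genes such as Slco1a4 (81.5, 54.3 and 33.4) lie apart.

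Organic ion carriers were among the brightest transporter genes. Slc22a12, the urate exchanger URAT1, gave 5328, 5199 and 5892 and ranked 58th. Slc47a1, the apical MATE1 that exports organic cations, gave 3977, 3662 and 4168, Slc22a2, the basolateral cation carrier OCT2, 1987, 1984 and 2086, and the carnitine carrier gene Slc22a5 2836, 2391 and 2988. The efflux pump genes Abcg2, Abcc2 and Abcc4 gave means of 3833 ± 196, 975 ± 105 and 346 ± 18.4 (SD, n = 3), and Abcb1a was below the smell receptor level at 52.3, 54.1 and 60.3. Of 20 genes 16 lay above it and 10 among the 1000 brightest. Slc22a13 was just inside at 83.3, 80.6 and 78.9.

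Of 29 genes for sodium, acid-base, anion and water transport 27 lay above the level and 12 among the 1000 brightest. Fxyd2 (6377, 5479 and 7038) and the pump's beta subunit gene Atp1b1 (5962, 5103 and 6397) ranked 30th and 51st. Aqp1, the constitutive water channel of the proximal tubule, gave 2964, 2901 and 3017, and Cldn2, which forms its leaky junctions, 3209, 2937 and 3322. Slc9a3, the apical sodium-proton exchanger NHE3, gave 492, 487 and 459. The carbonic anhydrase genes Car2, Car4, Car12 and Car14 gave means of 3516, 2195, 1427 and 1068. The sulfate and dicarboxylate carriers of the list, Slc13a1, Slc13a3 and Slc13a2, gave 2676 ± 96.5, 2889 ± 143 and 609.8 ± 26.2 (SD, n = 3). The glycerol channel gene Aqp7 (55.3, 62.7 and 59.0) and Aqp4 (34.1, 35.1 and 16.1) were below the level.

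All 12 endocytosis genes lay above the level and 8 among the 1000 brightest. Lrpap1, the chaperone of megalin, gave 4747, 4463 and 5158, the adaptor gene Dab2 4052, 3471 and 3912, and Amn, which anchors cubilin, 2058, 2011 and 2194. Clcn5, the endosomal chloride-proton exchanger that is disrupted in the other arm of the series, gave 1013, 709 and 1029 on its brightest probe set, with pool 2 low. Another Clcn5 probe set gave 821, 861 and 834, without that dip. Lysosomal genes numbered 14 of 15 above the level and 10 among the 1000 brightest, with Lamp1 at 5217, 4941 and 5584 and the protease genes Ctsl and Ctsb at 4057 ± 169.6 and 3885 ± 161 (SD, n = 3). Npc1, the cholesterol exporter of lysosomes, was below it at 61.7, 63.4 and 70.9.

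Brush border enzymes lay above the level in 14 of 14 genes, 7 of them among the 1000 brightest. Acy3, an aminoacylase, gave 4514, 4396 and 5131 and Mep1a, a meprin subunit, 4227, 3965 and 4653, beside the other subunit gene Mep1b at 144, 150.2 and 159. Treh, trehalase, gave 924, 914 and 925, a range of 1.01-fold. The aminopeptidase gene Anpep gave 548, 531 and 559, neprilysin, Mme, 251, 284 and 261, and Dpp4 261, 266 and 264.

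Enzymes that make glucose were bright, and so were some of glycolysis. Of 9 genes for glucose synthesis, fructose use and ammonia production all lay above the level and 7 among the 1000 brightest. After Fbp1 came G6pc, glucose-6-phosphatase (4406, 4133 and 4804), Pck1, which makes phosphoenolpyruvate (3989, 4196 and 4194), and Khk, the ketohexokinase of fructose (3610.2, 3422 and 3763). Gpt2, the mitochondrial alanine aminotransferase, had the widest range of this list, 1.81-fold, at 237, 343 and 428. Of 14 glycolysis genes 12 lay above the level and 6 among the 1000 brightest. Those 6, Pgk1, Ldhb, Aldoa, Ldha, Tpi1 and Pgam1, encode reversible steps that glucose synthesis shares or lactate dehydrogenase subunits. The genes of irreversible steps, Hk1, Pfkl, Pfkm, Pkm and Pklr, gave means of 238 to 668, and Hk2 was below the level at 35.3, 31.5 and 45.5.

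Fatty acid oxidation and ketone enzymes lay above the level in 15 of 15 genes and among the 1000 brightest in 13. Acadm, the medium-chain dehydrogenase, gave 3984, 3801 and 4188, Cpt1a, the gate of mitochondrial entry in this tissue, 2732, 2563 and 2832, and Oxct1, which uses ketone bodies, 4857, 4701 and 5240.4. Of 26 genes of the respiratory chain and ATP synthase 25 lay above the level and 23 among the 1000 brightest. The exceptions were the isoforms of heart and skeletal muscle: Cox7a1 at 189, 196 and 190.0, Cox6a2 at 93.9, 112 and 76.8, and Cox8b at 2.88, 11.8 and 6.71. Their counterparts Cox7a2, Cox6a1 and Cox8a gave means of 7112 ± 502, 5826 ± 603 and 4902 ± 576 (SD, n = 3).

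Of 19 enzymes of amino acids and small molecules 17 lay above the level and 10 among the 1000 brightest. Enzymes of tyrosine breakdown, Fah, Hgd and Hpd, gave means of 3836, 2850 and 1271. Cyp27b1, which activates vitamin D, gave 362, 341 and 351, and Cyp24a1, which inactivates it, 718, 716 and 626. Bhmt gave 97.9, 93.3 and 76.1. Arg1, the liver arginase, was listed at 2.98, 1.91 and 1.81 and Arg2, known from S3, at 14.3, 23.0 and 19.0, both below the level. Antioxidant enzymes and metallothioneins lay above it in 12 of 12 genes, 10 among the 1000 brightest, with Gpx1 at 6199, 5592 and 6894 and Gpx3, the plasma glutathione peroxidase made in kidney, at 5925, 5461 and 7106.

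Transcription factors were above the level in 11 of 13 genes, 2 of them among the 1000 brightest, Hnf4a and Maf (2602, 2809.6 and 2829). The bile acid receptor gene Nr1h4 gave 924, 1020.2 and 1090.1, Ppara, the fatty acid sensor, 939, 863 and 957, and Esrra 782, 780.5 and 799. Factors of distal segments were present too: Tfcp2l1 gave 1144, 1111 and 1199 and Tfap2b 218, 234 and 218. Gata3, of the collecting duct, was below the level at 43.5, 42.5 and 45.7, and so was Hnf4g at 18.1, 40.4 and 28.0.

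Genes that depend on sex were measured because the labels give none. The Y-linked genes Uty (155, 205 and 173), Eif2s3y (141, 138 and 125) and Kdm5d (89.6, 126 and 76.6) had mean signals above the smell receptor level, and Xist, expressed from the inactive X chromosome, was below it at 52.4, 72.4 and 71.0. Of 9 kidney genes raised by androgen all were above the level and 8 among the 1000 brightest. Besides Kap, Cyp4b1 and Cyp2e1 these were Odc1, of polyamine synthesis (4359, 4139 and 4616), Cyp4a12a (2723, 2664 and 2785), Cyp2j13, Acsm3 and Slco1a1, with Gusb at 372, 355 and 357. The sex of the pooled mice was not tested against any record.

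Early response genes, which rise within minutes of a stimulus, lay above the level in 19 of 20 genes, beside 52.3% of all genes. Of the 20, 1, Fos, was among the 1000 brightest at 1572, 1823 and 1538. That count is near the share over all genes, 5.5%. Dusp1 gave 1188, 1147 and 1204, Egr1 1110.2, 1137 and 1051, and Zfp36 684, 694 and 688. Myc was below the level at 33.1, 35.2 and 22.7. No member with a mean signal of 200 or more reached a 1.5-fold range, a background of 1.18% of such genes, and the widest, Btg2, gave 323, 434 and 304. Heat shock genes lay above the level in 7 of 7, 3 of them among the 1000 brightest, with Hspa8 at 6662, 6042 and 7458 and the inducible Hspa1b at 1726, 1374 and 1771. Without undissected kidney as a reference the effect of dissection on these levels was not tested.

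Clock genes were above the level in 11 of 17, 64.7%, beside 52.3% of all genes. Of these 2, Tef and Nr1d2, were among the 1000 brightest. Dbp, an output that cycles strongly, gave 925, 953 and 1032, Tef 1446, 1445 and 1510.0, Nr1d2 1392, 1348 and 1330.5, and Bhlhe40 717, 711 and 743. Their ranges were 1.04-fold to 1.12-fold, beside medians of 1.09-fold for all genes with signals from 500 to 1000 and from 1000 to 2000. Arntl, the activator of the loop that peaks opposite to Dbp, was below the level at 50.7, 56.1 and 62.9, as was Npas2 at 17.5, 37.1 and 6.26. Per1 had the widest range of the members with a mean signal of 200 or more, 1.36-fold, at 179, 243 and 204. The time at which kidneys were taken is not given in the sources used here.

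Injury genes were above the level in 4 of 10, beside 52.3% of all genes, and 1, Clu, was among the 1000 brightest. Clu (1921, 1824 and 2037), Krt8 (1272, 1032 and 1202), Vim (258, 255 and 237) and Krt18 were, and distal or interstitial cells of healthy kidney also express them. Havcr1, which encodes KIM-1 of injured proximal cells, was at 52.2, 50.9 and 41.6, Lcn2 at 17.9, 18.2 and 7.84, Vcam1 at 65.0, 75.5 and 43.8 and Sox9 at 6.72, 21.6 and 15.3, all below the level.

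Gene families, gathered by the start of their symbols after values had been seen, differed in how much of each was bright, with no test made. A shared start of a symbol also takes in assembly factors, antisense transcripts and other genes outside the class. All 17 genes with symbols in Atp5, of ATP synthase subunits and factors, were among the 1000 brightest, and 32 of 44 Nduf symbols, mostly of complex I, and 35 of 56 Rpl and Rps symbols, mostly of ribosomal proteins, were. Of 347 symbols of solute carriers, starting with Slc, 229, 66.0%, lay above the smell receptor level and 46, 13.3%, among the 1000 brightest. The shares over all genes were 52.3% and 5.5%. Within the solute carriers 8 of 21 Slc22 genes and 10 of 44 mitochondrial Slc25 carriers were among the 1000 brightest. Of 22 symbols of V-ATPase subunits and accessory proteins, whose pumps acidify endosomes, 20 lay above the level and 10 among the 1000 brightest, led by Atp6v1g1 (2966 ± 98.3, SD, n = 3). Of 73 symbols starting with Cyp, mostly cytochromes P450, 26 lay above the level and 10 among the 1000 brightest, with Cyp2j5, an arachidonic acid epoxygenase of kidney, at 6001 ± 428. Of 84 symbols starting with Kcn 12 lay above the level, and 1 of the 12 is the antisense RNA gene Kcnq1ot1, which is no channel gene. Kcnj15 (3597 ± 186) and Kcnj16 (2199.6 ± 108) were the 2 among the 1000 brightest. No gene among the 1000 brightest had a symbol of the 48 starting with Krt, the 73 with Il, the 36 with Hox or the 336 with Zfp. These counts are of symbols: Il takes in the amino acid oxidase gene Il4i1, and Hox the antisense transcript Hoxb5os. Close past the limit of 1000 were Zfp36l1, Krt8 and Hoxd8, ranked 1070th, 1083rd and 1128th, while the brightest Il gene, Il6st, ranked 2229th.

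In the signals as deposited, the spread between pools was largest for dim genes and smallest at signals from 1000 to 2000. It was wider again for the brightest genes. Over the 5843 genes with a mean signal of 200 or more the median SD of the log2 signal was 0.08 (n = 3 pools), a median coefficient of variation of 5.39% and a median range of 1.11-fold. For genes with a signal under 32 the median range was 2.03-fold, from 32 to 74 it was 1.36-fold, and from 1000 to 2000 it was 1.09-fold. It was 1.12-fold from 200 to 500, 1.10-fold from 2000 to 4000 and 1.17-fold at 4000 or more. The wider spread at the bright end was not kept under quantile normalization. For the 100 brightest genes the median coefficient of variation was 8.62% as deposited and 2.40% with that normalization. For the 300 brightest it was 6.94% and 2.68%. Of the 5843 genes 69, 1.18%, had pools that differed by 1.5-fold or more, and 3 by 2-fold or more. Pool 3 alone was 1.5-fold below both others in 10 genes and above them in 3. The counts were 1 and 5 for pool 2 and 2 and 4 for pool 1. Leaving out 1 pool lowered the count of 69 to between 22 and 36, the lowest without pool 3. With fewer pools the range of a probe set cannot widen, so a lower count was largely set beforehand.

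Few of the widest ranges were shared by other probe sets of a gene. The widest of all was that of Relt, a receptor of the tumour necrosis factor family, at 111, 486 and 83.6 on its only probe set. Next were 4930402H24Rik (231, 475 and 444) and Ppp1r37 (327, 649.7 and 319). Ptprf, a receptor phosphatase, gave 1481, 767 and 945 on its brightest probe set but 851, 862 and 853 on another. Epcam, an epithelial adhesion gene, gave 469, 836 and 476 on its brightest probe set and 299, 299 and 298 on the other. Of the 20 genes with the widest ranges 7 had another probe set with a mean signal of 200 or more, and in 1 of the 7 that probe set also reached 1.5-fold. This was 4930402H24Rik, whose other probe set ran the opposite way at 368, 312 and 195. The others of the 20 were Nol6, Vps13d, Extl2, Slc39a13, A1cf, Mapk9, Gpt2, Cc2d2a, Pmf1, Tfec, Pcnt, Tmem9b, Mir670hg, Kank1 and Cxcl1, with ranges of 1.71-fold to 1.97-fold.

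**Figure D4:**
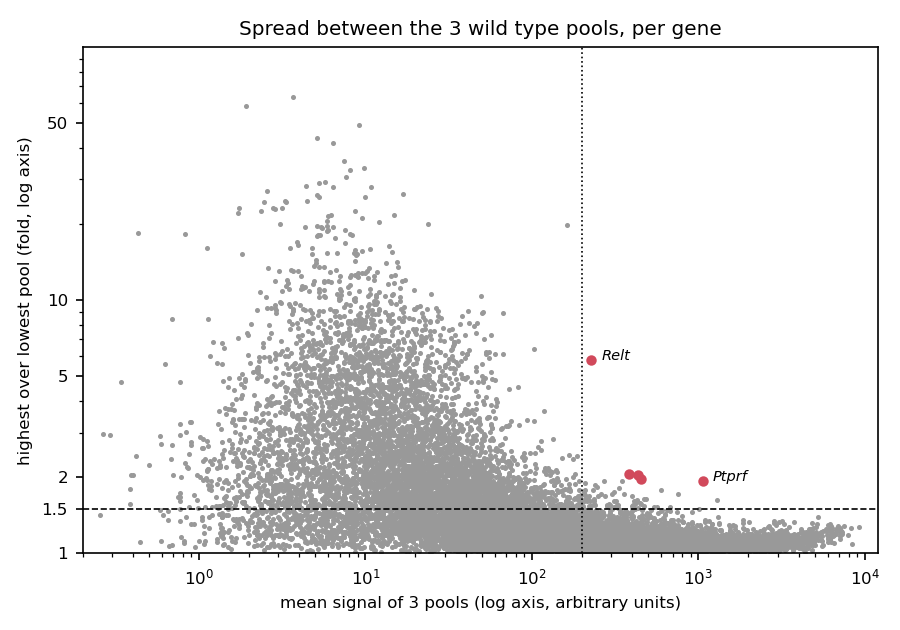
Ratio of the highest to the lowest pool (log axis) against the mean signal of the 3 pools (log axis, arbitrary units), 1 point for each of 18193 genes. The dashed line marks 1.5-fold and the dotted line a signal of 200. To the right of it 69 genes lie above 1.5-fold, and the 5 widest are in red, with Relt and Ptprf named.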

How the data were processed

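Per the labels' protocols, Trizol RNA of pooled mice went through a single oligo dT amplification with biotin labelling, a method biased toward transcript 3′ ends. The deposited files give linear intensity values, and the submitters' processing notes name GCOS 1.4 and MAS5 for them. The trimmed mean is 150 on each array when 2% is trimmed at each end. The number of arrays limits the precision.

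Of 45101 probe sets, 64 controls were left out. Of the remaining 45037, the platform annotation gives 1 symbol to 34945 and several to 932, and 9160 are unnamed here. Of the 34945, 34741 had an identifier in the RefSeq table of GRCm38.p6. Log2 signals, with no pseudocount added, were averaged over 3 arrays and ranked by the brightest probe set of a gene. Ranking used pandas 2.3.3 and numpy 2.4.6 under Python 3.11.15, and plots used matplotlib 3.10.9. No test was made, since 1 group of 3 pools holds no comparison. Ranking and counting were run on simulated data built from these signals, with less spread between pools than most genes have here. This was a check of the code and not of the results. Of 476 entries in 37 gene lists, 436 matched and 40 are not analysed here because no probe set names them alone. Named genes are the 30 brightest, the 6 markers, members of the lists and the 20 widest ranges. Members of gene families, and genes whose promoters held a motif, were named after their values were seen. The members and lists were chosen with earlier results of these data known. Alternatives changed the probe set rule, the normalization, the level, the pseudocount, the signal limit and the pools included.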

Additional observations from a re-analysis of the deposited data

Results flagged for a closer look

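Signals also appeared in probe sets that the comparisons do not use because no gene name was at hand for them. Of 9160 unnamed probe sets, 1166, 12.7%, lay above the smell receptor level, in data with no control samples of their own. These probe sets were counted singly, while the level and the 52.3% of all genes rest on the brightest probe set of a gene. The 2 shares are therefore unlike measures. A share over all probe sets is not given here, so 12.7% cannot be called high or low. Among the 100 brightest probe sets 10 were unnamed and 10 carried several symbols. The brightest unnamed one gave 7877, 6730 and 9261 in pools 1, 2 and 3 (mean 7956 ± 1267, SD, n = 3).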

How the results depend on the processing

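Of 90 values recomputed under the alternatives for 13 results, 76 stayed the same by size or side and 14 moved. The 100 brightest genes shared 62 with the main 100 when all probe sets of a gene were averaged and 52 without probe sets of the _s_at, _x_at and _a_at kinds. Without those kinds 17 instead of 26 genes of podocytes and cells outside the tubule lay above the smell receptor level. In that setting proximal markers above it fell from 29 to 24 and other tubule markers also from 29 to 24. Genes with no other probe set dropped out of these counts. CAAAGTCCA stood in 0% of promoters of the brightest genes without those kinds. The HNF1 type motif stood in 2.56% with averaged probe sets and 2.78% without those kinds. It stood in 0% to 1.32% when 1 pool was left out, with 0% without pool 2. For both motifs the main share was 1 of 76 promoters, so these percentages rest on very few genes. The count of 69 genes with a range of 1.5-fold or more became 38 on log2 of signal plus 50, 5493 with no limit on dim genes and 8 with a mean signal of 500 or more. It became 22 to 36 when 1 pool was left out, a fall largely set beforehand because fewer pools cannot widen a range. The order of the pools held in 12 of 100 genes after quantile normalization, an alternative chosen after seeing the data. No paired analysis was possible because 1 group was described and no test was made. Dim signals limit what can be read: below a signal of 32 the median range between pools was 2.03-fold.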
